A study of Mus musculus with 18 samples.

Results

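Foxp3 and 8 genes that mark regulatory T cells were followed across the 6 groups of a mouse CD4 T cell RNA-seq series. The genes were chosen by name: Foxp3, Lrrc32, Gpr83, Nrp1, Ikzf2, Ikzf4, Capg, Itgae and Penk. All 9 were found by symbol among the 55536 gene identifiers of the count table, and all 9 passed the filter on low counts. All mice were of the C57BL/6 background and had the OT-II transgene, a T cell receptor that recognises a peptide of ovalbumin. The tested genotypes were Cbl-b-/-W131AOTII, W131AOTII and Cbl-b-/- OTII, set against OTII. W131A is a substitution in ZAP-70, the kinase that the engaged T cell receptor recruits, and it loosens the kinase's autoinhibition; the submitters present W131AOTII mice as a genetic model of anergy, the unresponsive state of T cells. Cbl-b, an E3 ubiquitin ligase, dampens signals from the receptor, and the stated question was which pathways it controls when responsiveness returns. Peripheral cells of all 4 genotypes (spleen plus lymph nodes) passed a naive gate of low CD44 and present CD62L, without CD25 and with the Va2 receptor chain. W131AOTII and OTII were also sampled from the thymus, as CD4 single-positive cells that lacked CD25 and carried Va2. Each of the 6 groups had 3 libraries. The labels name 12 W131AOTII mice (4 per group), 6 Cbl-b-/-W131AOTII mice (2 per group), 3 OTII mice and 3 Cbl-b-/- mice. They give no number per group for OTII or Cbl-b-/-, and their word group may not mean the 6 groups of libraries. The sources used here give neither ages nor the mice behind each library, so groups may differ in how many mice a library holds, and p-values measure the spread between libraries. Genotype therefore cannot be told apart from any difference in colony or day of sorting.

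Foxp3 is the transcription factor that defines regulatory T cells, which arise in the thymus or from peripheral CD4 T cells and restrain immune responses. Its sustained transcription depends on T cell receptor and interleukin-2 signals. The other 8 genes are used as markers of these cells, although several of them, such as Itgae, Capg and Penk, are also expressed by other T cells or other leukocytes. CD25, encoded by Il2ra, is their usual surface marker, so the sort was designed to leave out most cells that carry it.

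RefSeq promoter windows (GRCm38.p6, 250 bases before to 50 bases after an annotated start) were matched for 4 of the 9 genes. Those of Foxp3 and Gpr83 are shown because this pair moved together in peripheral libraries and in opposite directions in the thymus. Capitals mark the NFAT core GGAAA, or its complement TTTCC on the other strand.
Foxp3, chrX:7579426-7579725, plus strand: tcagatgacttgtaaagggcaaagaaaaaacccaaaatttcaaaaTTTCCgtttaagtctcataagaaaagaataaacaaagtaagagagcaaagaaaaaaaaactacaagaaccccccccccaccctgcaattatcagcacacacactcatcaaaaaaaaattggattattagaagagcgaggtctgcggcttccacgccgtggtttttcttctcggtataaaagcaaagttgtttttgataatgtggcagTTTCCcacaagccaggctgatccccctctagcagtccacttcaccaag
Foxp3, chrX:7580233-7580532, plus strand: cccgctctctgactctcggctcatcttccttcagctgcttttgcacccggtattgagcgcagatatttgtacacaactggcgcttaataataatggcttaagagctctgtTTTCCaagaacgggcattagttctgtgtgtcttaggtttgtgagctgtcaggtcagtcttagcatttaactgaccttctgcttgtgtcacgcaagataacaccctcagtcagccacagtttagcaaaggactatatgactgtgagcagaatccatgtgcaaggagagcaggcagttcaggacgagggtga
Gpr83, chr9:14859960-14860259, plus strand: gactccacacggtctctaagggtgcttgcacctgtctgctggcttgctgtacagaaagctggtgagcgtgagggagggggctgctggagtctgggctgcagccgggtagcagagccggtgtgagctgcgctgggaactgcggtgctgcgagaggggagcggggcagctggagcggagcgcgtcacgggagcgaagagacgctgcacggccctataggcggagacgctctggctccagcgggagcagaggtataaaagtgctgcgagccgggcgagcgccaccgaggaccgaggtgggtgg
The first Foxp3 window held the core at bases 46 to 50 and 253 to 257, and the second at bases 111 to 115, all on the minus strand. The Gpr83 window held none. Of 32851 promoter windows of this length, 61.3% held the core on either strand, so the matches are common ones. A forkhead motif (GTAAACA, in 3.65% of windows), an AP-1 motif (TGANTCA, 7.81%) and a RUNX motif (TGTGGT, 16.8%) were searched on both strands and were in none of the 5 windows of the 4 matched genes. Positions are counted from 1 at the left end of each window.

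Libraries held between 19708218 and 36218772 counts, and levels below are CPM, counts divided by the TMM-scaled library size. Cblb averaged 93.6 ± 15.1 CPM in Cbl-b-/-W131AOTII against 159 ± 15.9 CPM in W131AOTII, and 69.5 ± 19.8 CPM in Cbl-b-/- OTII against 129 ± 10.7 CPM in OTII (SD, n = 3 each). The Cblb level was lower in both knockouts (log2 fold changes -0.76 and -0.89, adjusted p = 0.0142 and 0.00605 in edgeR's quasi-likelihood test). The first of these calls was lost without Cbl-b-/-W131AOTII replicate 2 or 3 (adjusted p = 0.055 each). Reads remained over the gene, and the sources used here do not name the deleted exons. Zap70, whose W131A change a count does not show, averaged 207 CPM in Cbl-b-/-W131AOTII, 333 CPM in W131AOTII, 265 CPM in Cbl-b-/- OTII and 314 CPM in OTII. It was lower in Cbl-b-/-W131AOTII than in W131AOTII (log2 fold change -0.68, adjusted p = 0.0431 in edgeR's quasi-likelihood test), a call lost in 5 of the 6 fits that left out 1 library of these groups, with the replicate block (0.0582) and with library size as the only scaling (0.0561). Peripheral W131AOTII replicate 2 stood apart from the rest: its 10 B cell markers summed to 5131 CPM, against 2287 and 2402 CPM in the other W131AOTII libraries.

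Foxp3 (ENSMUSG00000039521, GRCm38 chromosome X, 7573644 to 7595245) was highest in the 2 peripheral groups with W131A. It was at 125, 125 and 114 CPM in Cbl-b-/-W131AOTII libraries, 138, 161 and 148 CPM in W131AOTII, 31.7, 51.2 and 51.8 CPM in Cbl-b-/- OTII, and 28.5, 31.1 and 34.3 CPM in OTII. Thymic libraries had 35.0, 22.5 and 18.5 CPM in W131AOTII and 10.4, 10.3 and 12.0 CPM in OTII. No library of the 2 peripheral W131A groups overlapped a library of any other group, and the ranges of peripheral OTII overlapped those of Cbl-b-/- OTII and of thymic W131AOTII. The exons of Foxp3 share 853 bases with Flicr, a noncoding transcript on the same strand, and smaller stretches with Ppp1r3f, Ccdc22 and Gm36995 on the other; Flicr held 1123 counts over all libraries against 34373 for Foxp3. The sources used here do not give the strand setting of the counting. In bulk RNA, fewer or more cells of a type and less or more RNA per cell cannot be told apart, which holds for every level below.

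**Figure D1:**
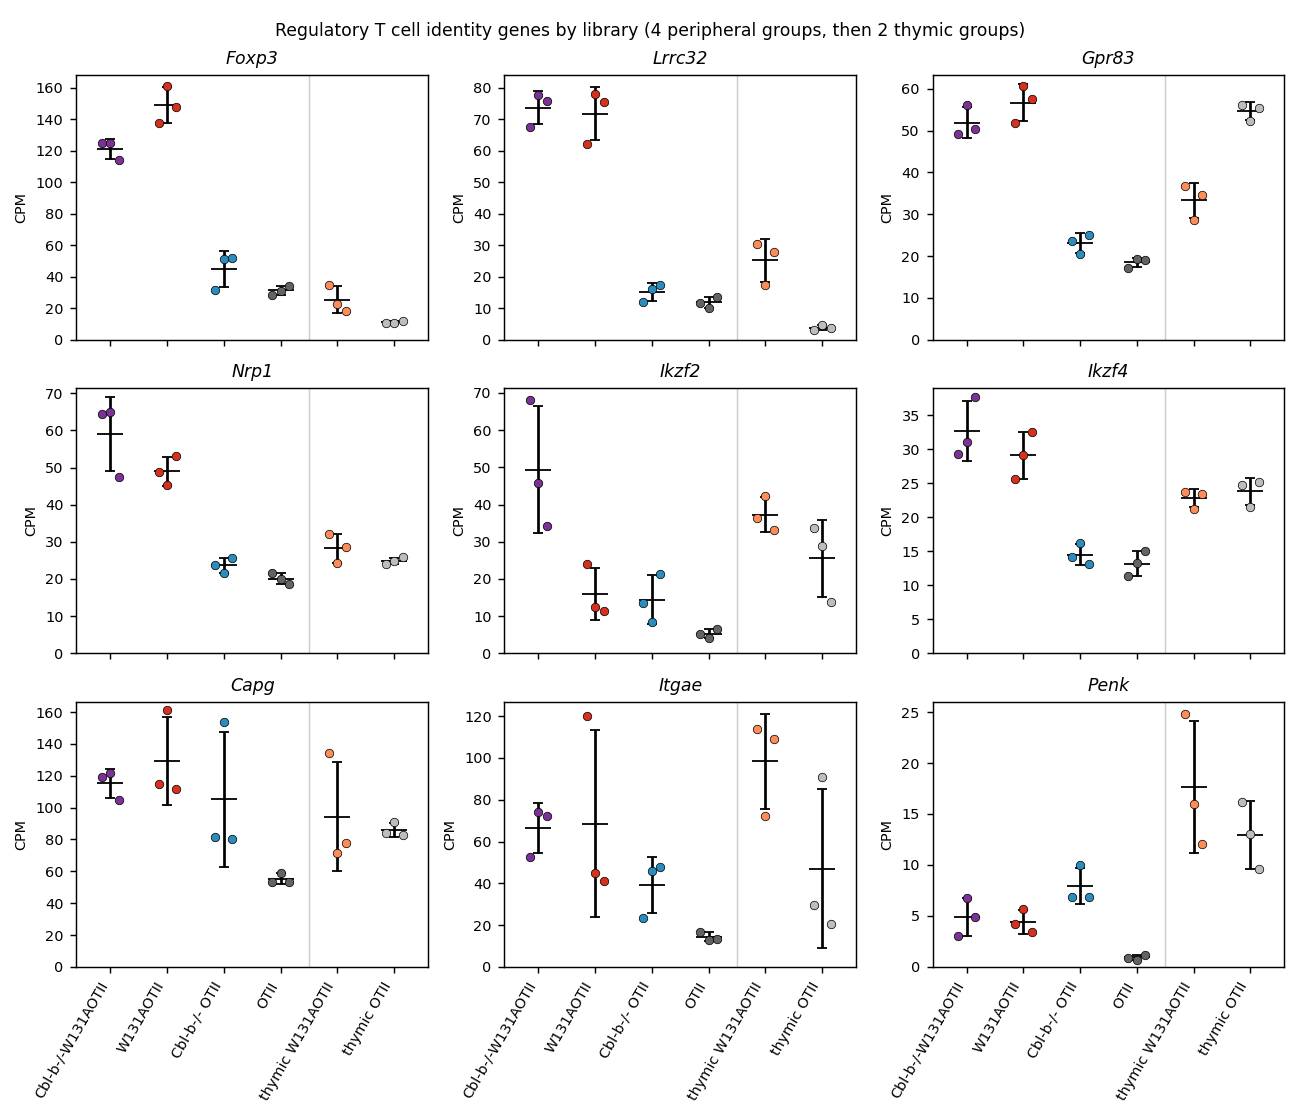
Level of each of the 9 genes (CPM, linear scale) in the 18 libraries, 1 point per library, by group, with the bar at the group mean and whiskers for the SD. Foxp3 lay between 114 and 161 CPM in the 6 peripheral libraries with W131A and between 28.5 and 51.8 CPM in the 6 without it.

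The first question was what the W131A change went with in peripheral cells. All 9 genes rose in W131AOTII against OTII, and for all 9 every W131AOTII library lay above every OTII library. Of the 15204 genes tested, 1.68% were called higher and 0.250% lower, and 10.7% had libraries that did not overlap in this direction. The log2 fold changes of the 9 ran from 1.14 to 2.61 with a median of 1.62, where the median of all genes tested was 0.00. Markers of other cells had medians of 1.31 (B cell), 1.02 (myeloid and dendritic), 2.4 (NK and innate-like) and 1.07 (CD8 T cell). Plasmacytoid dendritic and immature thymocyte markers had 0.16 and -0.14. Of these lists, 1 of 6 NK and innate-like and 2 of 5 CD8 T cell markers were called, all higher. The part of such cells in the rise of the 9 genes was not tested.

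Foxp3 averaged 149 ± 11.6 CPM in W131AOTII and 31.3 ± 2.90 CPM in OTII (SD, n = 3 each), a log2 fold change of 2.25 (SE 0.20, adjusted p = 2.14e-06 in edgeR's quasi-likelihood test). Lrrc32 (chromosome 7, 98489283 to 98502181) encodes GARP, which holds latent TGF-beta at the surface of activated regulatory T cells. It was at 62.1, 78.0 and 75.4 CPM in W131AOTII against 11.7, 10.2 and 13.5 CPM in OTII, and its log2 fold change of 2.61 (SE 0.20, adjusted p = 6.29e-07) was the highest of the 9. Gpr83 (chromosome 9, 14860210 to 14870789), a G protein-coupled receptor, was at 51.9, 60.8 and 57.5 CPM against 17.2, 19.2 and 19.1 CPM, with a log2 fold change of 1.62 (SE 0.13, adjusted p = 6.29e-07). These genes showed W131AOTII libraries that lay close to each other and far from OTII.

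Nrp1 (chromosome 8, 128358604 to 128503363) encodes neuropilin 1, a co-receptor for semaphorins that marks regulatory T cells of thymic origin in mice. It was at 48.8, 45.2 and 53.0 CPM in W131AOTII against 21.5, 20.0 and 18.6 CPM in OTII (log2 fold change 1.29, SE 0.15, adjusted p = 2.66e-05). Ikzf4 (chromosome 10, 128630843 to 128645991) encodes Eos, an Ikaros-family factor that works with Foxp3 in silencing its targets. It rose by 1.14 (SE 0.15, adjusted p = 0.000159), with 25.7, 29.2 and 32.6 CPM in W131AOTII against 11.3, 13.3 and 15 CPM in OTII. Capg (chromosome 6, 72544391 to 72562983), an actin-capping protein, was at 115, 161 and 112 CPM in W131AOTII and at 53.5, 59.2 and 53.3 CPM in OTII (log2 fold change 1.23, SE 0.24, adjusted p = 0.00668). The highest Capg value was that of W131AOTII replicate 2, the library with the most B cell marker counts; without it the call was kept. The calls of these 6 genes were kept when any 1 library was left out.

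Ikzf2, Itgae and Penk varied more between libraries. Ikzf2 (chromosome 1, 69531214 to 69687245) encodes Helios, another Ikaros-family factor of regulatory T cells. It was at 23.9, 12.5 and 11.4 CPM in W131AOTII against 5.21, 4.17 and 6.49 CPM in OTII (log2 fold change 1.59, SE 0.37, adjusted p = 0.0234), and the call was lost without W131AOTII replicate 1 or any 1 OTII library (adjusted p up to 0.162). Itgae (chromosome 11, 73090583 to 73147446) encodes the integrin chain CD103, which pairs with the beta 7 chain to bind E-cadherin. It was at 120, 45 and 40.9 CPM in W131AOTII against 16.9, 12.8 and 13.4 CPM in OTII, so that 1 library lay far above the rest. Its log2 fold change was 2.26 (SE 0.48, adjusted p = 0.0169); without W131AOTII replicate 1 it was 1.60 (adjusted p = 0.0692), and the call was also lost without any 1 OTII library (up to 0.113) and when only these 2 groups were fitted (0.165). Penk (chromosome 4, 4133531 to 4138819), which encodes the enkephalin precursor, was at 4.19, 5.69 and 3.41 CPM in W131AOTII against 0.901, 0.684 and 1.18 CPM in OTII. That is a low level, 80 counts over the 3 OTII libraries, and its log2 fold change of 2.26 (SE 0.36, adjusted p = 0.000939) was called in each fit that left out 1 library.

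**Figure D2:**
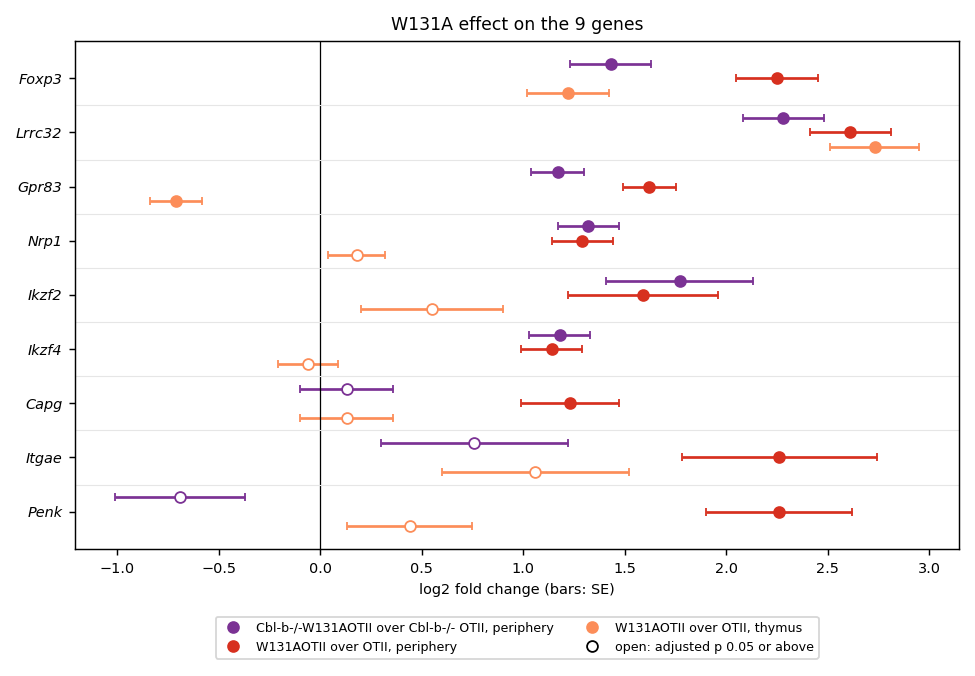
Log2 fold change of the W131A groups over their W131A-free counterparts for the 9 genes, with bars for the SE; filled points had an adjusted p under 0.05. All 9 points for W131AOTII over OTII are filled, from 1.14 for Ikzf4 to 2.61 for Lrrc32, and Gpr83 in the thymus lies at -0.71.

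The same substitution was compared on the Cbl-b-/- background, with other libraries. In Cbl-b-/-W131AOTII against Cbl-b-/- OTII, 6 of the 9 genes rose and 0 fell, where 0.802% of all genes were called higher and 1.09% lower. The 6 were Foxp3 (log2 fold change 1.43, SE 0.20, adjusted p = 0.000283 in edgeR's quasi-likelihood test), Lrrc32 (2.28, SE 0.20, adjusted p = 4.52e-06), Gpr83 (1.17, SE 0.13), Nrp1 (1.32, SE 0.15), Ikzf4 (1.18, SE 0.15) and Ikzf2 (1.77, SE 0.36, adjusted p = 0.0104). The Ikzf2 call was lost without Cbl-b-/-W131AOTII replicate 1 and without replicate 1 or 2 of Cbl-b-/- OTII (adjusted p up to 0.0788). Of the 9 genes, 7 had libraries above those of Cbl-b-/- OTII without overlap, where 11.1% of all genes did.

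Lrrc32 had the highest log2 fold change, with 67.7, 77.6 and 75.8 CPM in Cbl-b-/-W131AOTII against 12.1, 16.0 and 17.3 CPM in Cbl-b-/- OTII. Gpr83 was at 49.3, 56.1 and 50.3 CPM against 23.6, 20.5 and 25.1 CPM. Nrp1 was at 64.4, 65.0 and 47.6 CPM in Cbl-b-/-W131AOTII and 23.7, 21.7 and 25.7 CPM in Cbl-b-/- OTII. In these genes the groups did not overlap. Against OTII, Cbl-b-/- OTII had log2 fold changes of 0.36 for Lrrc32, 0.32 for Gpr83 and 0.24 for Nrp1, none called. For Gpr83 and Nrp1 every Cbl-b-/- OTII library still lay above every OTII library. Capg, Itgae and Penk did not pass the test: Capg was at 119, 122 and 105 CPM in Cbl-b-/-W131AOTII against 81.4, 154 and 80.0 CPM in Cbl-b-/- OTII (log2 fold change 0.13, 95% interval -0.38 to 0.64), and the interval for Itgae was -0.24 to 1.77. Penk was at 3.05, 6.80 and 4.93 CPM against 6.90, 9.96 and 6.86 CPM, lower in all 3 libraries without passing (-0.69, adjusted p = 0.271).

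Whether the 2 W131A effects differed was tested as an interaction of W131A with Cbl-b-/-. Penk alone of the 9 passed, with a difference between effects of -2.95 on the log2 scale (SE 0.48, adjusted p = 0.00341 in edgeR's quasi-likelihood test); 0.592% of all genes were called in this direction and 0.0395% in the other. Its W131A effect was -0.69 on the Cbl-b-/- background and 2.26 on the Cbl-b-sufficient one, and both comparisons use the low Penk counts of these sorted cells. For Foxp3 the difference was -0.82 (95% interval -1.42 to -0.22, adjusted p = 0.248), for Gpr83 -0.45 (-0.84 to -0.05, adjusted p = 0.335), for Capg -1.09 (-1.82 to -0.37, adjusted p = 0.191) and for Itgae -1.49 (-2.92 to -0.06, adjusted p = 0.376). Foxp3, Capg and Itgae passed where no filter on low counts was set (832 genes called in all, against 96), and Capg with GC and length offsets. The differences for Nrp1 (0.03, -0.41 to 0.47), Ikzf4 (0.03, -0.44 to 0.50) and Lrrc32 (-0.33, -0.93 to 0.27) were smaller, and that for Ikzf2 was wide (0.17, -0.93 to 1.27).

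The next question was what the loss of Cbl-b went with. In Cbl-b-/- OTII against OTII, 3 of the 9 genes rose, where 5.22% of all genes were called higher and 2.99% lower. Those shares rested on single libraries: 794 genes were higher and 455 lower, but 103 and 47 without OTII replicate 3, 222 and 117 without OTII replicate 2, and 230 and 197 without Cbl-b-/- OTII replicate 2. Penk was at 6.90, 9.96 and 6.86 CPM in Cbl-b-/- OTII against 0.901, 0.684 and 1.18 CPM in OTII, a log2 fold change of 3.09 (SE 0.36, adjusted p = 6.09e-05 in edgeR's quasi-likelihood test), and its call was kept without any 1 library. Ikzf2 was at 13.5, 8.46 and 21.4 CPM against 5.21, 4.17 and 6.49 CPM (1.46, SE 0.37, adjusted p = 0.0226), which was lost without Cbl-b-/- OTII replicate 3 or any 1 OTII library (up to 0.103). Capg (0.92, SE 0.24, adjusted p = 0.0236) rested on Cbl-b-/- OTII replicate 2, and was 0.54 without it (adjusted p = 0.136); leaving out any 1 OTII library also ended the call (up to 0.124).

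Foxp3 did not pass in this comparison: it averaged 44.9 ± 11.4 CPM in Cbl-b-/- OTII and 31.3 ± 2.90 CPM in OTII (log2 fold change 0.52, 95% interval 0.09 to 0.95, adjusted p = 0.10). It passed without Cbl-b-/- OTII replicate 1, the lowest library of that group (0.72, adjusted p = 0.0337), with GC and length offsets (0.0241) and with no filter on low counts (0.0422). Lrrc32, at 0.36 (-0.07 to 0.80), passed with GC and length offsets (0.0389). Of the 9 genes, 6 had Cbl-b-/- OTII libraries above all OTII libraries, where 14.9% of all genes did; Gpr83 and Nrp1 were among them with log2 fold changes of 0.32 and 0.24, and Itgae with 1.44 (adjusted p = 0.0663).

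On the W131A background, 1 of the 9 genes rose in Cbl-b-/-W131AOTII against W131AOTII, where 3.18% of all genes were called higher and 6.08% lower. That gene was Ikzf2, at 68.1, 45.8 and 34.3 CPM in Cbl-b-/-W131AOTII against 23.9, 12.5 and 11.4 CPM in W131AOTII (log2 fold change 1.63, SE 0.35, adjusted p = 0.0122 in edgeR's quasi-likelihood test). The groups did not overlap, and the call was lost without Cbl-b-/-W131AOTII replicate 1, without replicate 2 or 3 of W131AOTII (up to 0.0957) and with only these groups fitted (0.053). The 95% intervals of genes that did not pass were -0.38 to 0.45 for Lrrc32, -0.40 to 0.15 for Gpr83, -0.04 to 0.58 for Nrp1 and -0.16 to 0.49 for Ikzf4. They were wider for Capg (-0.68 to 0.34), Penk (-0.54 to 0.84) and Itgae (-1.04 to 0.95). Foxp3 averaged 121 ± 6.18 CPM in Cbl-b-/-W131AOTII and 149 ± 11.6 CPM in W131AOTII, with every Cbl-b-/-W131AOTII library below every W131AOTII library, as in 20.3% of all genes. Its log2 fold change of -0.29 (95% interval -0.71 to 0.13, adjusted p = 0.338) passed only where these 2 groups alone were fitted (0.0488). That fit called 1853 of all genes lower and 1443 higher, against 924 and 483 in the fit reported. In this comparison 9 of 10 B cell markers also fell, with sums of 1640 to 1795 CPM in Cbl-b-/-W131AOTII and 2287 to 5131 CPM in W131AOTII; their part in the result was not tested.

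**Figure D3:**
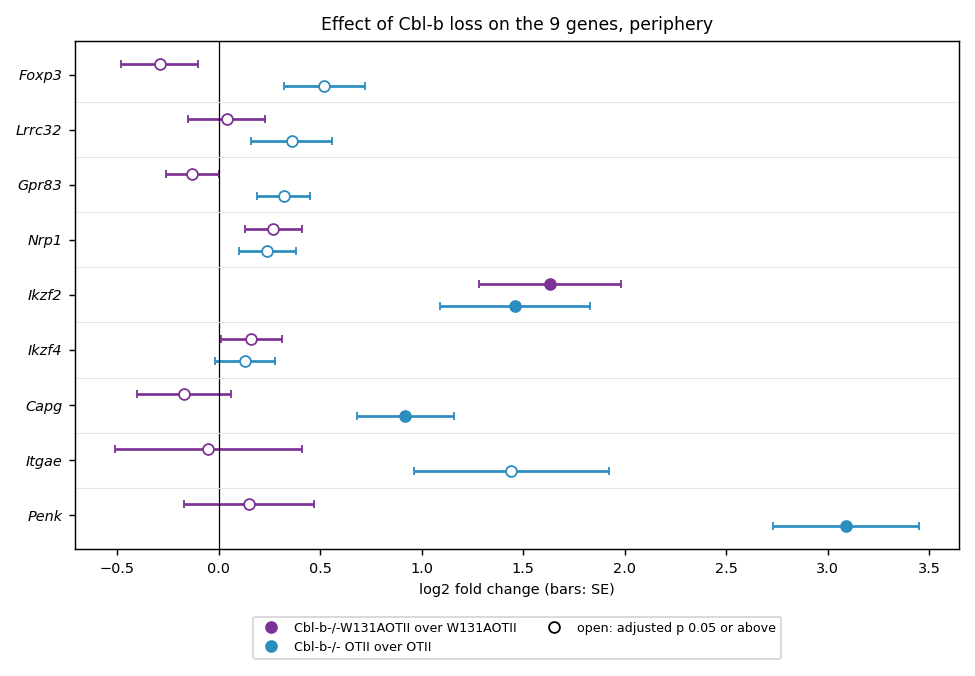
Log2 fold change of the Cbl-b-/- groups over their Cbl-b-sufficient counterparts in the periphery for the 9 genes, with bars for the SE; filled points had an adjusted p under 0.05. Ikzf2 lies at 1.63 with W131A and 1.46 without it, and Penk at 0.15 and 3.09.

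With both changes together, in Cbl-b-/-W131AOTII against OTII, all 9 genes rose, where 3.87% of all genes were called higher and 3.52% lower. This comparison shares libraries with those above. Ikzf2 had the highest log2 fold change, 3.22 (SE 0.38, adjusted p = 3.49e-05 in edgeR's quasi-likelihood test), and averaged 49.4 ± 17.2 CPM in Cbl-b-/-W131AOTII and 5.29 ± 1.16 CPM in OTII. The calls of Capg (without OTII replicate 3, adjusted p = 0.0551) and Itgae (without OTII replicate 2 or 3, up to 0.0711) were lost in single fits.

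The thymic libraries gave the same W131A comparison in CD4 single-positive thymocytes. In thymic W131AOTII against thymic OTII, 2 of the 9 genes rose and 1 fell, where 1.73% of all genes were called higher and 1.04% lower. Lrrc32 was at 30.4, 17.5 and 27.7 CPM in thymic W131AOTII against 2.97, 4.55 and 3.78 CPM in thymic OTII (log2 fold change 2.73, SE 0.22, adjusted p = 1.38e-06 in edgeR's quasi-likelihood test). Foxp3 averaged 25.3 ± 8.61 CPM in thymic W131AOTII and 10.9 ± 0.951 CPM in thymic OTII (1.22, SE 0.20, adjusted p = 0.00164). Gpr83 fell, with 36.8, 28.6 and 34.5 CPM in thymic W131AOTII against 56.2, 52.3 and 55.5 CPM in thymic OTII (-0.71, SE 0.13, adjusted p = 0.00307); the libraries did not overlap, and the call was lost with only these groups fitted (0.0703).

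The other 6 genes did not pass in the thymus. The 95% intervals were -0.14 to 0.49 for Nrp1 and -0.39 to 0.27 for Ikzf4, and wider for Ikzf2 (-0.21 to 1.30), Capg (-0.38 to 0.64), Penk (-0.22 to 1.11) and Itgae (0.05 to 2.06). Itgae was at 114, 72.0 and 109 CPM in thymic W131AOTII against 29.7, 90.7 and 20.5 CPM in thymic OTII. Thymic OTII replicate 2 lay within the W131AOTII range, and without it Itgae passed (log2 fold change 1.95, adjusted p = 0.0135). Thymic W131AOTII replicate 1 was the highest library of its group for all of the 9 genes except Ikzf2, with the clearest gaps for Foxp3 (35.0 CPM), Capg (134 CPM) and Penk (24.8 CPM). It also had the most Zbtb16, which encodes PLZF, a factor of innate-like T cells: 20.2, 6.58 and 4.78 CPM in thymic W131AOTII against 0.519, 0.884 and 0.747 CPM in thymic OTII. The part of such cells in these levels was not tested.

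Tested as a difference between effects, 3 of the 9 genes had a higher W131A log2 fold change in the periphery than in the thymus, where 0.296% of all genes did and 0.0855% had a lower one. They were Gpr83 (difference 2.33, SE 0.18, adjusted p = 1.08e-06 in edgeR's quasi-likelihood test), Ikzf4 (1.21, SE 0.21, adjusted p = 0.0132) and Nrp1 (1.11, SE 0.20, adjusted p = 0.0168). Nrp1 was lost without OTII replicate 3 (0.0732), and Ikzf4 without the set of 3 libraries left out together (0.0608). Foxp3 had a difference of 1.03 (95% interval 0.42 to 1.64, adjusted p = 0.153), which passed with DESeq2 (0.0411) and without thymic W131AOTII replicate 1 (0.0118). Penk (1.82, adjusted p = 0.119) also passed with DESeq2 (0.0168) and without that library (0.0312), and Capg (1.09, adjusted p = 0.224) without that library (0.0226). For Lrrc32 the difference was -0.12 (-0.74 to 0.50).

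Periphery and thymus also differed within a genotype, in cells that differ in maturity and in the sort. The labels name 3 OTII mice and there are 6 OTII libraries, so peripheral and thymic libraries may come from the same animals; with no map of mice to libraries they were fitted as independent, here and in the differences between peripheral and thymic effects. In peripheral against thymic OTII, 2 of the 9 genes rose and 5 fell, where 7.75% of all genes were called higher and 10.6% lower. Markers of other cells moved too: 8 of 10 B cell markers rose and 1 fell, with sums of 2203 to 2558 CPM in peripheral OTII and 719 to 1013 CPM in thymic OTII. Of 8 immature thymocyte markers 7 fell (424 to 425 CPM against 1209 to 1822 CPM), and of 6 NK and innate-like markers 4 fell (74.3 to 86.4 CPM against 213 to 495 CPM). Their part in the results was not tested. Foxp3 (log2 fold change 1.52, SE 0.20) and Lrrc32 (1.63, SE 0.21) rose. Penk fell most, averaging 0.923 ± 0.251 CPM in peripheral OTII and 13.0 ± 3.30 CPM in thymic OTII (-3.81, SE 0.36, adjusted p = 4.33e-07 in edgeR's quasi-likelihood test). Ikzf2 fell by 2.27 (SE 0.37), Gpr83 by 1.56 (SE 0.13) and Ikzf4 by 0.85 (SE 0.15) on the log2 scale. Itgae fell by 1.72 (SE 0.48, adjusted p = 0.0174), a call lost without peripheral OTII replicate 2 or 3 (up to 0.0713) and without thymic OTII replicate 2 (-0.81, adjusted p = 0.177). Capg, at -0.64 (adjusted p = 0.0693), passed with library size as the only scaling (0.0311).

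In peripheral against thymic W131AOTII, 4 of the 9 genes rose and 2 fell, where 8.07% of all genes were called higher and 11.2% lower. Again 9 of 10 B cell markers rose (2287 to 5131 CPM in peripheral W131AOTII and 665 to 1030 CPM in thymic W131AOTII), 7 of 8 immature thymocyte markers fell and 1 of 6 NK and innate-like markers fell; their part was not tested. Foxp3 had the highest log2 fold change (2.55, SE 0.21, adjusted p = 5.63e-08 in edgeR's quasi-likelihood test), followed by Lrrc32 (1.51, SE 0.20), Nrp1 (0.80, SE 0.14) and Gpr83 (0.77, SE 0.13). Penk fell by 1.99 (SE 0.32) and Ikzf2 by 1.22 (SE 0.35, adjusted p = 0.0180), the Ikzf2 call being lost without peripheral W131AOTII replicate 2 or 3 or thymic W131AOTII replicate 2 (up to 0.0952). Gpr83 was thus called lower in the periphery than in the thymus in OTII and higher in W131AOTII.

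The order of the groups differed between genes. Per kilobase of exon, Foxp3 was at 32.5 CPM in peripheral W131AOTII and 26.5 CPM in Cbl-b-/-W131AOTII, the 2 highest groups, and at 2.38 CPM in thymic OTII, the lowest. Lrrc32 followed the same split, with 15.3 and 15.7 CPM per kilobase in these peripheral groups and 0.804 CPM per kilobase in thymic OTII. Thymic OTII was next to the top for Gpr83, where its libraries overlapped those of both peripheral W131A groups. The 2 thymic groups were the highest for Penk, whose libraries there overlapped each other, and peripheral OTII was the lowest group for Gpr83, Nrp1, Ikzf2, Ikzf4, Capg, Itgae and Penk. Capg was the most abundant of the 9 per kilobase in peripheral W131AOTII, at 51.2 CPM, and Ikzf2 the least abundant there, at 1.37 CPM.

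Across the 12 peripheral libraries, which share their sort and include the 4 genotypes, log2 CPM of Lrrc32 and Gpr83 followed that of Foxp3 most closely (Pearson r = 0.98 each). Ikzf4 had r = 0.94 and Nrp1 0.93, then Itgae 0.81, Capg 0.79, Ikzf2 0.68 and Penk 0.47. With the 6 thymic libraries included, Lrrc32 had 0.92 and Nrp1 0.78, while Gpr83 had 0.26, Ikzf2 0.08 and Penk -0.30. These are descriptions over libraries that fall into groups. Outside the 9, the genes most like Foxp3 in the 12 peripheral libraries were Il2rb (0.984), Prg4 (0.980), Spry1 (0.973), Adam19 (0.972) and Endod1 (0.971). Over all 18 libraries they were Dnaja4 (0.956), Adamtsl4 (0.950), Sh3bp5 (0.939), Syt11 (0.935) and Golm1 (0.932). Il2rb, which encodes the beta chain of the interleukin-2 receptor, averaged 221 CPM in Cbl-b-/-W131AOTII, 269 CPM in W131AOTII, 95.7 CPM in Cbl-b-/- OTII and 55.2 CPM in OTII.

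Itgae was set beside 6 markers of NK and innate-like cells and 5 of CD8 T cells. Over the 18 libraries its log2 CPM had a Pearson r of 0.87 with Trdc, the constant segment of the delta chain of the gamma-delta T cell receptor, and 0.79 with Nkg7, a cytotoxic granule protein. With deviations from group means the values were 0.85 and 0.81. This pair had the highest values of the 11 markers and was chosen after they were seen. The other 4 innate-like markers ran from 0.09 (Ncr1) to 0.53 (Zbtb16), and from 0.26 to 0.37 within groups. Itgb7, the partner chain of Itgae, had -0.38, and 0.10 within groups. W131AOTII replicate 1, the library with 120 CPM of Itgae, had 291 CPM of Trdc against 168 and 148 CPM in the other W131AOTII libraries, and OTII had 64.7, 67.7 and 55.9 CPM. Thymic OTII replicate 2, the other library far above its group, had 322 CPM of Trdc against 241 and 150 CPM in the rest of that group. Of the CD8 T cell markers, Itgae had r = 0.32 with Cd8a, -0.05 with Cd8b1, 0.63 with Gzmk, 0.64 with Eomes and -0.10 with Klrd1. Within groups the values were -0.24, -0.07, 0.37, 0.02 and 0.53 in the same order. In W131AOTII against OTII 2 of these 5 markers rose, where 1.68% of all genes did. They were Eomes (log2 fold change 1.73, SE 0.31, adjusted p = 0.00358 in edgeR's quasi-likelihood test) and Klrd1 (1.24, SE 0.31, adjusted p = 0.0425), whose call was lost in 5 of the 6 fits that left out 1 library of these groups. The 5 summed to 206 to 217 CPM in W131AOTII and 165 to 199 CPM in OTII. The 6 markers of NK and innate-like cells summed to 163 to 403 CPM in W131AOTII and 74.3 to 86.4 CPM in OTII, and 1 of them, Trdc, rose (log2 fold change 1.69, SE 0.29, adjusted p = 0.00196 in edgeR's quasi-likelihood test). Most of these sums came from Trdc (means 202 CPM and 62.8 CPM) and Nkg7 (60.2 CPM and 18.3 CPM). Of the other 4, Klrb1c had the highest W131AOTII mean, at 1.03 CPM against 0.174 CPM in OTII. The part of these markers in the levels of Itgae and the other 8 genes was not tested.

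**Figure D4:**
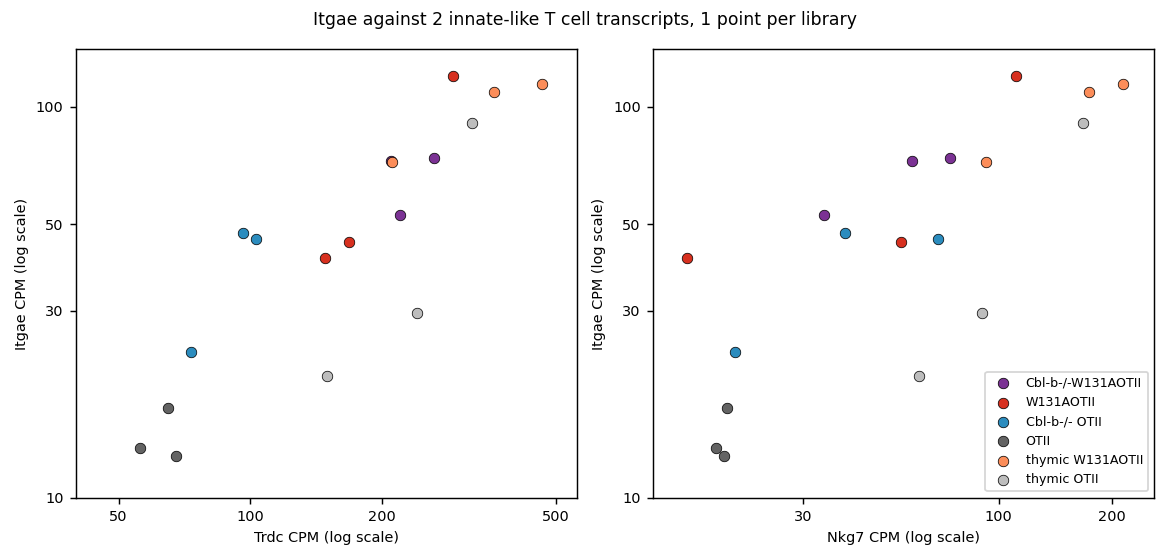
Itgae against Trdc and Nkg7 (CPM, log scales), 1 point per library, coloured by group. The W131AOTII library with 120 CPM of Itgae has 291 CPM of Trdc and 111 CPM of Nkg7, and the 3 peripheral OTII libraries lie at the lower left with 12.8 to 16.9 CPM of Itgae.

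Other genes of the regulatory T cell signature were read from a list of 30, of which 29 passed the filter on low counts. In W131AOTII against OTII 14 of the 29 rose and 0 fell, where 1.68% of all genes rose and 0.250% fell. Their median log2 fold change was 1.80 against 0.00 for all genes. With no filter on low counts 24 signature genes rose, and 709 of all genes did, against 255 in the fit reported. Il2ra, the gene of the CD25 chain used in the sort, averaged 71.1 CPM in W131AOTII and 23.9 CPM in OTII (log2 fold change 1.57, SE 0.16, adjusted p = 9.07e-06 in edgeR's quasi-likelihood test). Il2rb rose by 2.28 (SE 0.25), Tnfrsf4, which encodes the costimulatory receptor OX40, by 2.13 (SE 0.24), and Nt5e, which encodes the ectoenzyme CD73, by 2.58 (SE 0.30). On the Cbl-b-/- background 5 rose, namely Il2ra (1.25, SE 0.16), Nt5e (1.76, SE 0.29), Il2rb, Socs2 and Ecm1, and 2 fell, Cd81, a tetraspanin (-0.73, SE 0.12), and Klrg1, an inhibitory receptor. Of all genes, 0.802% rose and 1.09% fell in that comparison. The count of 5 was 3 without Cbl-b-/- OTII replicate 1 or Cbl-b-/-W131AOTII replicate 2 or 3.

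The same list was read under Cbl-b loss. In Cbl-b-/- OTII against OTII 13 of the 29 rose and 0 fell, where 5.22% of all genes rose and 2.99% fell. Ctla4, which encodes the inhibitory receptor CTLA-4, averaged 20.9 CPM in Cbl-b-/- OTII and 4.73 CPM in OTII (log2 fold change 2.14, SE 0.25, adjusted p = 6.05e-05 in edgeR's quasi-likelihood test), and Tnfrsf4 rose by 1.97 (SE 0.23). Fgl2, a secreted suppressive protein, averaged 5.38 CPM against 0.622 CPM (3.11, SE 0.43). In the interaction with W131A 5 of the 29 passed, all negative, where 0.592% of all genes were called negative and 0.0395% positive. They were Klrg1, Gzmb, which encodes granzyme B, the chemokine receptor gene Ccr8 (-2.71, SE 0.39, adjusted p = 0.00135), Fgl2 (-3.08, SE 0.57, adjusted p = 0.00983) and Tnfrsf4 (-1.55, SE 0.32, adjusted p = 0.0237). The count of 5 was 2 without W131AOTII replicate 2 or OTII replicate 2 or 3, and 3 without Cbl-b-/-W131AOTII replicate 1 or 3. Tnfrsf4 and Gzmb were lost in each of those fits, Klrg1 without W131AOTII replicate 2 or either of the same OTII libraries, and Fgl2 only without the set of 3 libraries left out together (0.0753). Peripheral OTII held 1 count of Klrg1 in all. The interaction median was -0.95 for the 29, -4.05 for NK and innate-like markers, -2.04 for B cell and -1.51 for myeloid and dendritic markers. It was -0.47 for CD8 T cell, -0.34 for plasmacytoid dendritic and -0.11 for immature thymocyte markers. Of these markers of other cells only Lyz2, a myeloid one, was called (-5.39). Their part was not tested. In Cbl-b-/-W131AOTII against W131AOTII 1 of the 29 rose and 1 fell, where 3.18% of all genes rose and 6.08% fell. Klrg1 rose, from few counts (1.47 CPM against 0.277 CPM), and Tnfrsf1b, a receptor for tumor necrosis factor, fell (-0.76, SE 0.16). Both calls were lost without Cbl-b-/-W131AOTII replicate 1 and without replicate 3 of W131AOTII (adjusted p up to 0.109). In thymic W131AOTII against thymic OTII 6 rose and 0 fell, where 1.73% of all genes rose and 1.04% fell. Nt5e was at 44.2 CPM against 7.45 CPM (2.56, SE 0.30) and Il2ra at 35.5 CPM against 13.8 CPM (1.36, SE 0.16). The count of 6 was 3 without thymic OTII replicate 3.

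**Figure D5:**
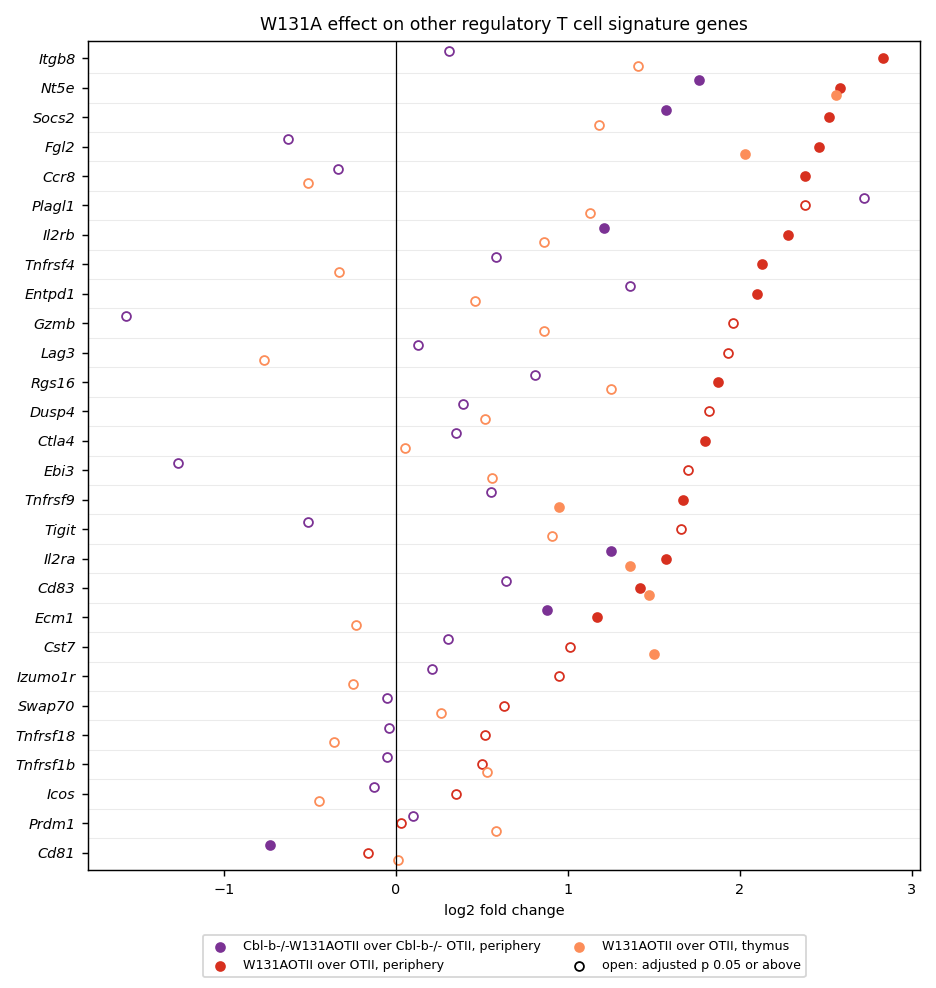
Log2 fold changes of 28 of the 29 tested genes of the wider regulatory T cell signature for the W131A comparisons on the Cbl-b-/- background, in the periphery and in the thymus; Klrg1 is not drawn because peripheral OTII held 1 count of it in all. Filled points had an adjusted p under 0.05, and Il2ra lies at 1.25 for Cbl-b-/-W131AOTII over Cbl-b-/- OTII, 1.57 for W131AOTII over OTII and 1.36 for thymic W131AOTII over thymic OTII.

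A further list held genes known to act on Foxp3 or with it. Of 29 such regulators and partners, 2 rose and 0 fell in W131AOTII against OTII, where 1.68% of all genes rose and 0.250% fell. They were Irf4, a factor induced by T cell receptor signals, at 18.6 CPM in W131AOTII and 8.57 CPM in OTII (log2 fold change 1.12, SE 0.22, adjusted p = 0.00716 in edgeR's quasi-likelihood test), and the immediate-early factor Nr4a1, at 62.7 CPM and 39.9 CPM (0.65, SE 0.15, adjusted p = 0.0291). Irf4 was lost without OTII replicate 2 (0.0535), and Nr4a1 without any 1 library of these groups except W131AOTII replicate 3 (up to 0.132). In thymic W131AOTII against thymic OTII the same pair fell, Irf4 by 1.24 (SE 0.21) and Nr4a1 by 0.96 (SE 0.15) on the log2 scale, while Foxp3 rose. The difference between the peripheral and thymic effects was 2.36 for Irf4 (SE 0.31) and 1.61 for Nr4a1 (SE 0.22, adjusted p = 0.000865 each).

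Of the same 29 regulators, 5 fell in Cbl-b-/- OTII against OTII (Foxo1, Nfatc1, Nfatc2, Bach2 and Tet3) and 4 in Cbl-b-/-W131AOTII against W131AOTII (Runx3, Irf4, Nfatc1 and Dnmt1), where 2.99% and 6.08% of all genes fell. Their log2 fold changes lay between -0.48 and -0.76. Foxo1, which supports Foxp3 transcription, averaged 432 CPM in Cbl-b-/- OTII and 667 CPM in OTII (-0.63, SE 0.14, adjusted p = 0.0140 in edgeR's quasi-likelihood test). The 5 calls were each lost without Cbl-b-/- OTII replicate 2 and without replicate 2 or 3 of OTII, and Foxo1 then had an adjusted p of up to 0.107. The 4 were each lost without Cbl-b-/-W131AOTII replicate 1 (0.133 to 0.15).

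The TGF-beta list covered the partners of Lrrc32 and Itgae. Of 18 tested genes, 1 rose in W131AOTII against OTII, where 1.68% of all genes did. It was Itgb8, the integrin chain that releases TGF-beta from GARP, at a low level (0.684 CPM in W131AOTII and 0.0931 CPM in OTII). Its log2 fold change of 2.83 (SE 0.61, adjusted p = 0.0153 in edgeR's quasi-likelihood test) was lost without W131AOTII replicate 2 or OTII replicate 1 or 2 (up to 0.111). In Cbl-b-/-W131AOTII against W131AOTII 4 fell, where 6.08% of all genes did: Tgfb1 (-0.63, SE 0.15), the receptor gene Tgfbr2 (-0.62, SE 0.14), Nrros (-0.49, SE 0.15), a GARP-related anchor of latent TGF-beta, and Itgb7 (-0.67, SE 0.16), the partner chain of Itgae. Each of these was lost without Cbl-b-/-W131AOTII replicate 1. On the background without W131A, loss of Cbl-b went with 1 gene that rose, Itgb8, and 3 that fell, Tgfbr2, Tgfbr3 and Nrros, where 5.22% of all genes rose and 2.99% fell. These 3 falls were each lost when OTII replicate 2 or 3 was left out (adjusted p up to 0.188). Of the Ikaros family only the members Ikzf2 and Ikzf4 were called in the peripheral comparisons above; Ikzf1, Ikzf3 and Ikzf5 did not pass in them. Of 9 tested semaphorin and co-receptor genes of Nrp1, 1 fell in W131AOTII against OTII, where 0.250% of all genes did. It was the receptor gene Plxnd1 (-1.21, SE 0.29, adjusted p = 0.0343, lost without W131AOTII replicate 1 or 3 or OTII replicate 1 or 3).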

How the data were processed

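The values are raw read counts per Ensembl gene, deposited by the authors without scaling, in a table of 1 column per library. The submitters' processing notes name STAR 2.7.2, GRCm38 and DESeq2; the sources used here do not give the counting step or its strand setting. Reads were 50 bases, single-end, per the labels' protocols. Names, coordinates and exon lengths came from GENCODE M21, in which all 55536 identifiers matched. Column totals ran from 19708218 to 36218772.

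A single model in edgeR 4.0.16 (R 4.3.3) held the 18 libraries with a mean for each of the 6 groups, which left 12 residual degrees of freedom. filterByExpr kept 15204 genes, TMM factors set the scale, and the robust quasi-likelihood F test was adjusted by Benjamini-Hochberg over all genes at 0.05. CPM and log2 CPM (prior count 2) are edgeR's. SEs and 95% intervals come from that fit. There were 10 comparisons, 2 of them differences between effects. The fit was tested on simulated data.

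Alternatives were DESeq2 1.42.0, its size factors in edgeR, library size only, no filter, only the groups compared, a replicate block, GC and length offsets (mgcv 1.9.3) without and with the block, each library left out, and 3 libraries left out together (peripheral W131AOTII replicate 2, Cbl-b-/- OTII replicate 2 and thymic OTII replicate 3). That set was taken from an earlier account of these data; on the first 3 principal components Cbl-b-/- OTII replicate 2 lay near the others of its group.

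The 9 genes, the gene lists and the tests were chosen with earlier results of these data known, so no list is independent evidence. Named genes were all 9, Cblb and Zap70, up to 4 per list and direction with the smallest adjusted p, and the 5 most correlated with Foxp3. Other genes named, the overlapping transcripts and the innate-like markers among them, were chosen after their values were seen. Per the labels' protocols, the mice numbered 3 for OTII, 12 for W131AOTII, 3 for Cbl-b-/- and 6 for Cbl-b-/-W131AOTII.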

Additional observations from a re-analysis of the deposited data

Results flagged for a closer look

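Penk had W131A effects that differed between the Cbl-b backgrounds, by -2.95 on the log2 scale (SE 0.48, adjusted p = 0.00341 in edgeR's quasi-likelihood test). Its level was 4.93 ± 1.88 CPM in Cbl-b-/-W131AOTII against 7.91 ± 1.78 CPM in Cbl-b-/- OTII, and 4.43 ± 1.16 CPM in W131AOTII against 0.923 ± 0.251 CPM in OTII (SD, n = 3 each). All 3 groups with either change lay above every OTII library.

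The W131A effect also differed between periphery and thymus for 3 genes, by 2.33 for Gpr83 (adjusted p = 1.08e-06), 1.11 for Nrp1 (adjusted p = 0.0168) and 1.21 for Ikzf4 (adjusted p = 0.0132), all from edgeR's quasi-likelihood test. Gpr83 went up in every peripheral W131AOTII library and down in every thymic one: 56.7 ± 4.46 CPM in peripheral W131AOTII against 18.5 ± 1.11 CPM in peripheral OTII, and 33.3 ± 4.23 CPM in thymic W131AOTII against 54.7 ± 2.10 CPM in thymic OTII. Nrp1 and Ikzf4 had W131AOTII libraries above all OTII libraries in the periphery, and overlapping libraries in the thymus.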

How the results depend on the processing

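Over the 9 genes, 1458 values were recomputed under the alternatives: 1341 kept their direction and side of the threshold, 39 lost their call, 42 gained one and 36 changed sign. The cause of such changes was not tested, except that fits without a library hold fewer samples. In Cbl-b-/- OTII against OTII the count of genes higher was 5 with no filter and 5 with GC and length offsets, without or with the replicate block, and 1 to 4 with single libraries left out. Over all genes 1122 were higher with no filter and 417 and 357 with the offsets, against 794 in the fit reported. With single libraries left out 103 to 1090 were. In Cbl-b-/-W131AOTII against W131AOTII the count of the 9 genes was 0 higher and 1 lower (Foxp3) with only the groups compared, and 0 to 1 higher with single libraries left out. Over all genes 1443 were higher and 1853 lower with only the groups compared, against 483 and 924 in the fit reported. The thymic count of the 9 genes lower was 0 with only the groups compared, where 39 of all genes were, against 158 in the fit reported. In peripheral against thymic W131AOTII, 1 to 2 of the 9 genes were lower with single libraries left out. Over all genes 1224 to 1633 were, against 1696 in the fit reported. In the interaction, 4 of the 9 genes were lower with no filter and 2 with GC and length offsets, without or with the block. Over all genes 702 were lower with no filter and 120 and 97 with the offsets, against 90 in the fit reported. For the W131A effect in periphery against thymus, the count of the 9 genes higher was 8 with no filter, 5 with DESeq2 and 2 to 6 with single libraries left out. Over all genes 294 were higher with no filter and 142 with DESeq2, against 45 in the fit reported. With single libraries left out 19 to 90 were. Of the 5 genes most like Foxp3, 2 stayed in the top 5 by Spearman's rho over 18 libraries, and 2 over 12.

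The sign changes were of values that did not pass in the fit reported. In Cbl-b-/-W131AOTII against W131AOTII, library size only gave 0.02 for Gpr83 and 0.09 for Itgae; GC and length offsets gave 0.01 for Capg and 0.06 for Itgae, and with the block 0.01 and 0.08; Capg was 0.01 without the 3 libraries. Leaving out single libraries gave -0.07 to 0.08 for Lrrc32, -0.26 to 0.01 for Capg, -0.31 to 0.61 for Itgae and -0.17 to 0.39 for Penk there, -0.01 to 0.52 for Capg in Cbl-b-/-W131AOTII against Cbl-b-/- OTII, -0.19 to 0.29 for Capg and -0.37 to 0.11 for Zap70 in the thymus, and -0.26 to 0.22 for Zap70 in peripheral against thymic W131AOTII. In the interaction they gave -0.05 to 0.16 for Nrp1, -0.14 to 0.59 for Ikzf2, -0.08 to 0.15 for Ikzf4 and -0.06 to 0.38 for Cblb, and in periphery against thymus -0.31 to 0.04 for Lrrc32 and -0.01 to 0.47 for Zap70. Nrp1 in the interaction was -0.11 with GC and length offsets, -0.12 with the block added and -0.10 without the 3 libraries, where Ikzf2 was -0.25 and Cblb -0.08. With GC and length offsets, without and with the block, Zap70 was -0.03 and -0.03 in W131AOTII against OTII, 0.06 and 0.06 in peripheral against thymic OTII, and 0.08 and 0.08 in peripheral against thymic W131AOTII. Library size only moved the median of all genes to 0.18 in Cbl-b-/-W131AOTII against W131AOTII, with 960 genes higher and 531 lower against 483 and 924 in the fit reported.

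Counts over all genes also moved: with single libraries left out, 29 to 398 genes were higher and 95 to 1013 lower in Cbl-b-/-W131AOTII against W131AOTII (483 and 924 in the fit reported). Deviations of same-numbered libraries from their group means had correlations from -0.304 to 0.205. In 0 of 8 comparisons was every pair over 0.1, and the fit reported took no pairing from the numbers. This check cannot show whether libraries share animals or a day of sorting. The replicate block alone left every count of the 9 genes as reported. With 3 libraries per group, depth limits mainly Penk in peripheral OTII (80 counts).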
